A study of Mus musculus with 6 samples.

Results

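The Rab genes encode small GTPases that mark the membranes of the cell. They were taken from the deposited count table as every row whose symbol is Rab followed by a number, with or without a letter and a further number after it, which gave 59 of 49492 rows. The measurements came from RAW264.7 cells, a mouse macrophage line, sequenced as stranded mRNA libraries. One group of 3 libraries was transfected for 48 h with 50 nM of an siRNA against Ep300, labelled as Ep300 silenced, and the other 3 with 50 nM of a control siRNA, labelled WT. Ep300 encodes the lysine acetyltransferase p300, and the comparison asks how macrophage transcripts differ after its silencing. All cells are from one established line, and nothing in the labels ties a library to a culture of its own. The p-values therefore rest on differences between these libraries alone, which may be technical.

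A Rab protein switches between a GDP-bound form, held in the cytosol by a GDP dissociation inhibitor, and a GTP-bound form on a membrane, where it recruits tethers, motors and fusion factors. Exchange factors load GTP and GTPase-activating proteins end the cycle. In macrophages the phagosome matures by exchanging early endosomal Rab5 proteins for Rab7, and other Rab proteins steer recycling, lysosome fusion and secretion.

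Total counts ran from 29993567 to 45377510 per library. Ep300 itself was at 51.1, 59.0 and 55.0 CPM (counts scaled to a common library size with TMM factors) after Ep300 siRNA and at 106.8, 115.3 and 118.4 CPM after control siRNA, a fall to 0.485 of the control level (edgeR quasi-likelihood test, Benjamini-Hochberg adjusted p = 3.62e-05). Of 10 macrophage markers, 9 were high enough to test. None passed in edgeR, and DESeq2 and limma-voom each called 1 higher and 1 lower. An unadjusted p under 0.05 was found for 4 of the 9 and for 3493 of all 15741 genes tested. Of 22 markers of other cell types, 5 had no count in any library, and their summed level was 5.27 to 6.12 CPM after Ep300 siRNA and 4.45 to 6.11 CPM in the controls.

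Across the Rab genes the picture after Ep300 silencing was one of a steady total, with a few members called in opposite directions. Rab15, Rab7b, Rab8b and Rab18 fell and Rab2a rose. Of the most abundant members, Rab8b was among those that fell, while Rab7, Rab5c and Rab31 did not pass the test. A total of 45 of the 59 genes was high enough to test. Of these, 1 rose and 4 fell at an adjusted p under 0.05, or 11.1% of those tested, where 6.78% of all 15741 genes tested were called (2.76% rose and 4.02% fell). Among all genes the split was 435 higher and 633 lower, and on library sizes without scaling factors 28.6% of calls were rises in place of 40.7%. The members' median log2 fold change was 0.04, against −0.004 for all genes tested. The groups did not overlap for 18 members, 11 of them higher and 7 lower after Ep300 siRNA, or 40% of those tested. Over all genes, 27.5% had groups that did not overlap, 13% being higher and 14.4% lower. Summed over all 59 members, the Rab transcripts came to 2930 ± 92.5 CPM with Ep300 siRNA and to 2969 ± 62.6 CPM in the controls (SD, n = 3 each). Their sum was 0.285% to 0.303% of the counts of a library.

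**Figure D1:**
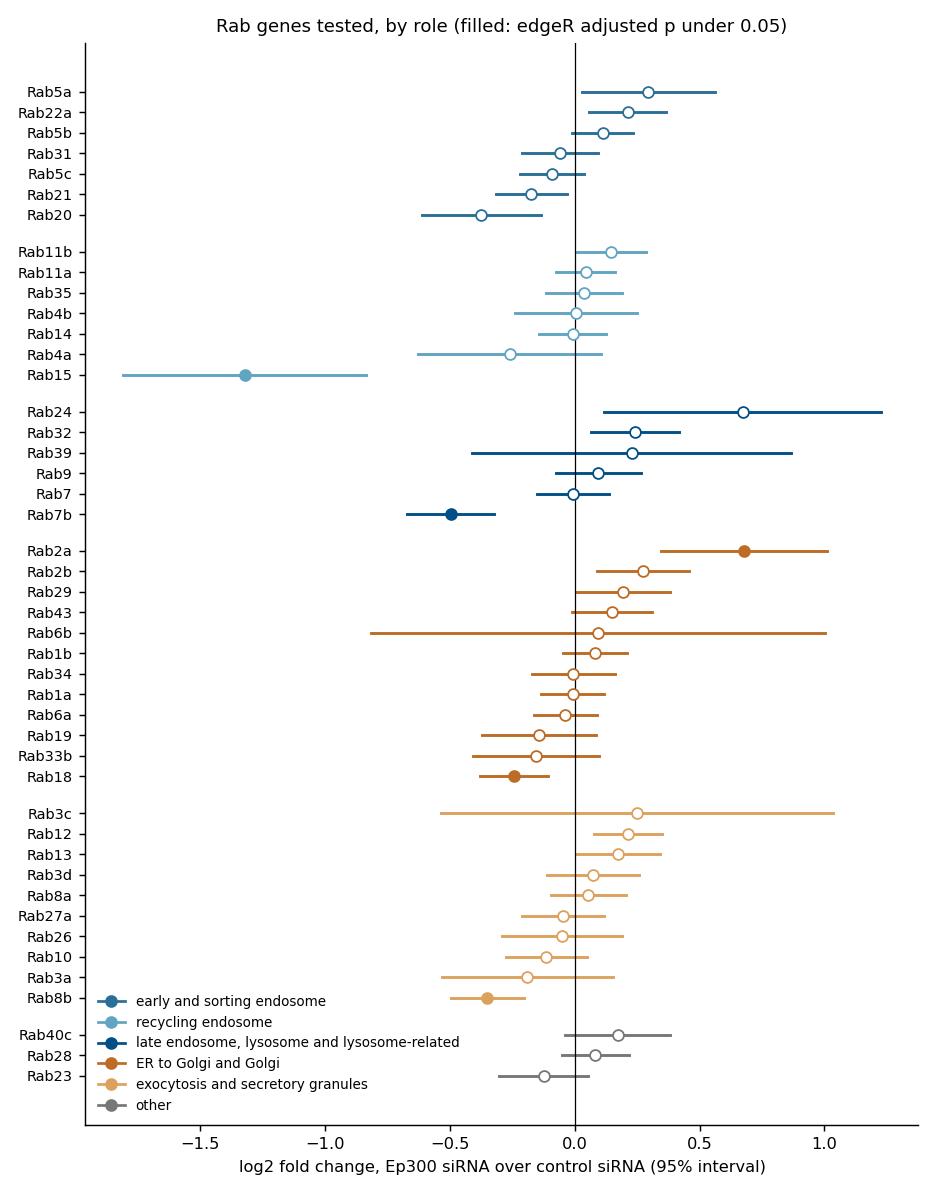
Log2 fold change (Ep300 siRNA over control siRNA, x axis) of the 45 Rab genes tested, grouped by role, with 95% intervals. Filled points passed an edgeR adjusted p under 0.05: Rab15, Rab7b, Rab18 and Rab8b lie to the left of 0 and Rab2a to the right.

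The 14 members not tested had at most 9 counts in any library. They include Rab25 and Rab17, known from epithelia, the granule genes Rab27b, Rab37, Rab3b and Rab44, and Rab39b and Rab9b. Rab38, which acts in melanosome formation beside Rab32, had no count in any library. A count of 0 allows a level of up to 0.0648 to 0.102 CPM in these libraries (3 counts, counting error only), and a higher one if both mates of a read pair were counted. Levels can be set against each other per length, as CPM per kb of annotated exon. On that scale the control libraries were led by Rab7 at 144.9 ± 6.81 (SD, n = 3), the late endosomal Rab, and Rab5c at 84.5 ± 1.94. Rab31 followed at 57.7 ± 2.46, then Rab8b at 51.1 ± 3.56, Rab10 at 50.7 ± 4.88 and Rab8a at 44.0 ± 3.54. Rab8b and Rab10 differed by less than their spread. After Ep300 siRNA the mean level of Rab8b was 40.1 CPM per kb, under the 45.7 of Rab8a. The lowest member tested was Rab3c, a Rab of regulated exocytosis, at 0.0464 ± 0.0114 CPM per kb.

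Promoter sequences help to set some of these members side by side. RefSeq promoters (GRCm38.p6, 250 bases before to 50 after an annotated start, with more than one start for some genes) matched 48 members, 40 of them tested. Rab18, Rab2a, Rab26, Rab7b and Rab4a had no entry. The windows below hold the E-box letters CACGTG, in capitals, on the strand of the gene. Rab5a and Rab24 are shown because they varied alike across the libraries, as described further on. Rab20 and Rab21 are shown because they had lower values after Ep300 siRNA. None of these genes passed the main edgeR test. In an edgeR fit with no filter on low counts, Rab5a and Rab24 passed as higher and Rab20 as lower.
Rab5a, chr17:53478989-53479014, plus strand, 235 bases before the start: ttggagaagaCACGTGacgcaacccc
Rab5a, chr17:53479129-53479154, plus strand, 95 bases before the start: ccggggatgtCACGTGacttcggccc
Rab21, chr10:115315606-115315631, minus strand, 30 bases before the start: ccaccgcggtCACGTGacgaggggtg
Rab24, chr13:55321963-55321988, minus strand, 2 bases after the start: gcgcccgcgtCACGTGaccgggcgtc
Rab20, chr8:11478671-11478696, minus strand, 46 bases before the start: gccgggcaccCACGTGgtcgcagggc
In Rab5a (the site nearer the start), Rab21 and Rab24 the letters GT stand before the E-box and AC after it. Of 9896 tested genes with a promoter entry, 79 (0.798%) had that longer form, as did 3 of the 40 tested members. It was looked for only after the windows had been seen. Rab21 did not vary widely within a group as Rab5a and Rab24 did (SD of log2 CPM 0.07, against 0.22 and 0.52). The plain E-box was in the promoters of 6 of 40 tested members (15%) and of 11.8% of tested genes. The other 2 of the 6 were Rab23 and Rab27a, at log2 fold changes of −0.12 and −0.05, and neither passed.

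Other short motifs were counted in the same promoters on both strands. TGACTCA, the letters bound by AP-1, was found for 2 of 40 members (5%), where 4.62% of tested genes had it. One of them is Rab34, 58 bases before a start, with a log2 fold change of −0.005 ± 0.08 (SE). The other is Rab15, the member with the largest fall, at a start inside the gene, downstream of its first start.
Rab15, chr12:76818603-76818624, minus strand, 245 bases before that start, AP-1 letters in capitals: ggaaaTGACTCAaaccatcagg
TGACG, the shorter form of a CREB site, was found for 23 of 40 members (57.5%) and 35.3% of tested genes. GGAAG, the core letters of ETS factors such as PU.1, was found for 34 of 40 (85%) and 79.6%. TGACG shares its first letters with the end of CACGTG where ACG follows, as in the Rab21 window. Genes with more than one start count once if any start has the letters. No motif of this kind was found in the 300 bases of Rab8b. These are matches of letters only and say nothing of binding.

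Of 20 endocytic members tested, 2 fell and none rose in the main edgeR test, DESeq2 or limma-voom. The main edgeR test thus called 10%, against 6.78% of all genes, and the median log2 fold change was 0.02. With no filter on low counts, edgeR also called Rab20 lower and Rab5a and Rab24 higher. An unadjusted p under 0.05 was found for 9 of the 20 and for 3493 of all 15741 genes. The recycling endosome group held the larger of these falls. Rab15, which slows recycling from early endosomes, was at 2.46, 2.51 and 3.02 CPM after Ep300 siRNA and at 5.55, 5.19 and 9.36 CPM in the controls. The groups did not overlap, and control replicate 3 was the highest. Rab15 (GRCm38 chromosome 12, 76797960 to 76822908, minus strand) fell by 1.32 on the log2 scale, a ratio of 0.400 (± 0.22, SE, 95% interval −1.81 to −0.84, edgeR adjusted p = 0.00535). Its level is low, from 72 to 112 counts per library after Ep300 siRNA and from 186 to 342 in the controls, and the call held in each of the 6 fits that left out a library (log2 fold change −1.46 to −1.002, the latter without control replicate 3).

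The other 6 recycling members tested did not pass. Rab11a, the main Rab of slow recycling, had 75.8 to 76.3 CPM after Ep300 siRNA and 72.9 to 74.6 CPM in the controls. Its groups did not overlap, yet the log2 fold change was only 0.04 ± 0.05 (SE). Its paralog Rab11b was at 0.15 ± 0.06 (edgeR adjusted p = 0.19), Rab14 at −0.01 ± 0.06 and Rab35, a Rab of fast recycling, at 0.04 ± 0.07. Rab4a and Rab4b, which serve fast recycling too, were at −0.26 ± 0.17 and 0.004 ± 0.11. Rab4b shares 65.0% of its exon bases with Gm21983 on the same strand, so reads may be split between them.

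**Figure D2:**
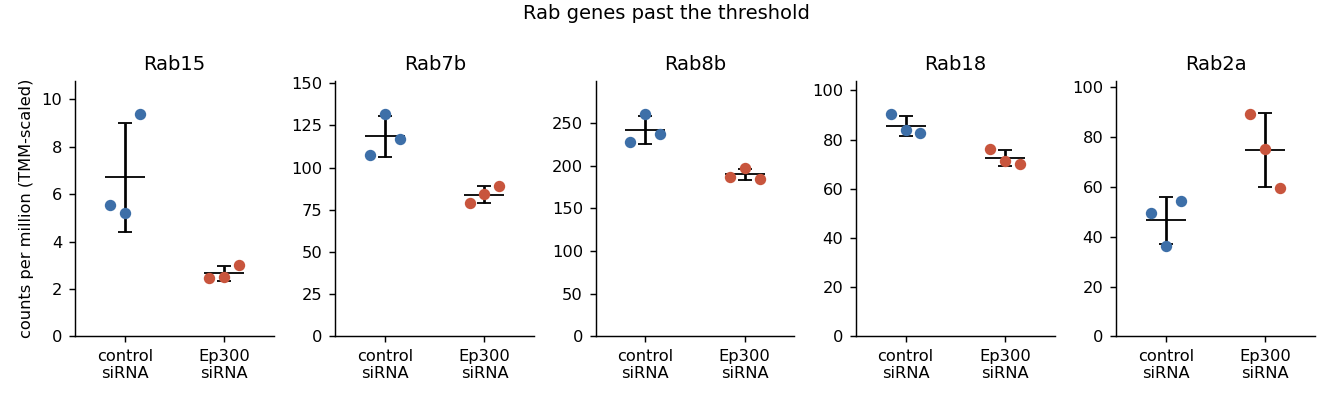
CPM (y axis, TMM-scaled counts) of the 5 Rab genes past the threshold, with 1 point per library, a bar at the mean and error bars of 1 SD (n = 3). Rab15, Rab7b, Rab8b and Rab18 are lower in every Ep300 siRNA library than in any control, and Rab2a is higher.

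Of 6 late endosomal and lysosomal members tested, Rab7b fell and 5, Rab7 and Rab24 among them, did not pass (median log2 fold change 0.16). Rab7b directs traffic from late endosomes to the trans-Golgi network and in macrophages has been tied to the turnover of Toll-like receptors. Its libraries held 78.8, 84.4 and 88.9 CPM after Ep300 siRNA and 107.2, 131.5 and 116.9 CPM after control siRNA. Every control library was above every Ep300 siRNA library. Rab7b, on chromosome 1 from 131688695 to 131715439 (plus strand), thus fell by 0.50 on the log2 scale (± 0.08, SE, 95% interval −0.67 to −0.32, edgeR adjusted p = 0.00432), a ratio of 0.709, and kept its call in each fit with a library left out.

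Rab7, which drives fusion of late endosomes, phagosomes and autophagosomes with lysosomes, was at 399.8, 361.9 and 367.5 CPM against 368.9, 398.7 and 366.9 CPM. The groups overlapped throughout. Its log2 fold change was −0.01 ± 0.07 (SE), with a 95% interval of −0.15 to 0.14. In counts per kb, Rab7b made up 11.2 ± 1.06% (SD, n = 3) of the sum of Rab7 and Rab7b after Ep300 siRNA and 15.01 ± 0.824% in the controls, with no overlap between the groups. Rab9, a Rab of transport from late endosomes to the Golgi, was at 0.10 ± 0.08, and Rab39, which has been described on phagosomes, at 0.23 ± 0.29 with at most 34 counts in a library. Rab32, which works on lysosome-related organelles and phagosomes, had 20.1 to 21.2 CPM against 16.2 to 18.8 CPM, with the groups apart and an edgeR adjusted p of 0.0977.

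The early and sorting endosome had 7 tested members and no call from the main edgeR test, DESeq2 or limma-voom. With no filter on low counts, edgeR called Rab20 lower and Rab5a higher. An unadjusted p under 0.05 was found for 4 of the 7 and for 3493 of all 15741 genes. The groups lay apart for 4 of the 7, where 27.5% of all genes had groups apart. The group had a median log2 fold change of −0.06. The lowest log2 fold change was that of Rab20, a Rab of early phagosomes, at 6.62, 6.95 and 7.18 CPM against 9.89, 8.76 and 8.21 CPM. Its groups did not overlap and its value was −0.37 ± 0.11 (SE, edgeR adjusted p = 0.0661). Rab20 shares 25.6% of its exon bases with E230013L22Rik on the other strand, which was at −0.37 ± 0.17. Whether strand was used for counting is not known here, and without it reads of such a pair cannot be told apart. Rab21, which carries integrins inward, was at −0.17 ± 0.07, and Rab31, which moves cargo between endosomes and the Golgi, at −0.06 ± 0.07. Rab22a, a Rab of early endosomes and tubular recycling, had 53.7 to 63.6 CPM against 49.7 to 51.9 CPM, with the groups apart (0.21 ± 0.07, edgeR adjusted p = 0.0959).

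The 3 Rab5 genes, whose products drive early endosome fusion, did not move as a set. Rab5c, the most abundant, was at −0.09 ± 0.06 (SE), Rab5b at 0.11 ± 0.06 and Rab5a at 0.30 ± 0.12, with edgeR adjusted p from 0.172 to 0.403. Rab5b had 58.4 to 61.6 CPM against 54.7 to 56.2 CPM, with the groups apart. Rab5a passed without control replicate 3 (log2 fold change 0.45, edgeR adjusted p = 0.044). The share of Rab5c in the family's counts per kb was 75.9%, 76.1% and 79.2% after Ep300 siRNA and 80.5%, 81.1% and 79.2% in the controls. Ep300 siRNA replicate 3 and control replicate 3 were nearly equal, so the groups all but meet.

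**Figure D3:**
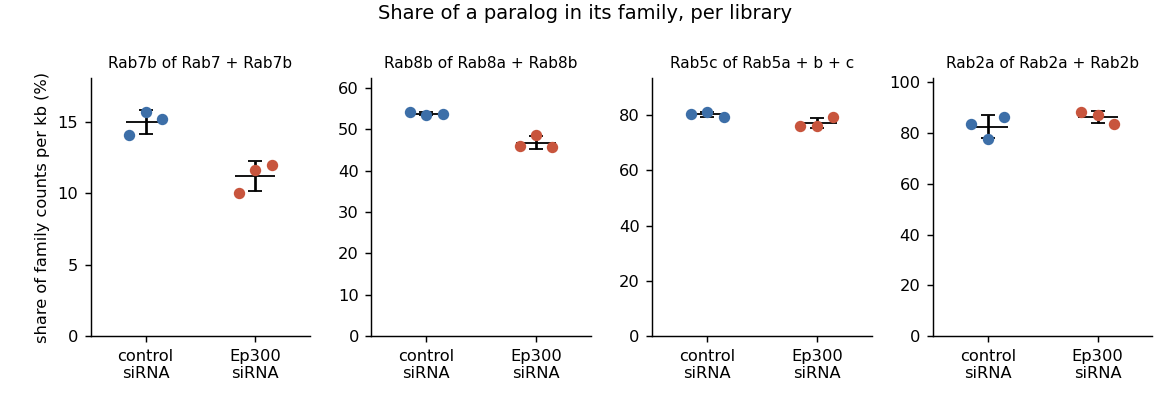
Share (y axis, %) of 1 paralog in the counts per kb of its family, with 1 point per library, a bar at the mean and error bars of 1 SD (n = 3). Rab7b and Rab8b make up less of their families in every Ep300 siRNA library than in any control, whereas the Rab2a share overlaps between the groups.

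The secretory members held 1 rise and 2 falls among 22 tested (13.6%, against 6.78% of all genes), with a median log2 fold change of 0.02. The groups lay apart for 9 of the 22, where 27.5% of all genes had groups apart. Rab8b, which carries cargo from the Golgi and recycling endosomes to the plasma membrane, had 186.9, 197.7 and 184.9 CPM after Ep300 siRNA and 227.4, 260.3 and 237.7 CPM in the controls. The highest Ep300 siRNA library lay below the lowest control. Rab8b, on chromosome 9 from 66843664 to 66919687 (minus strand), fell by 0.35 on the log2 scale, a ratio of 0.785 (± 0.07, SE, 95% interval −0.50 to −0.20, edgeR adjusted p = 0.0101). Without control replicate 2 the fall was −0.28 and no longer passed (edgeR adjusted p = 0.0609).

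Rab8a, its close paralog, had 206.7 to 217.9 CPM against 190.7 to 223.5 CPM and a log2 fold change of 0.05 ± 0.07 (SE, 95% interval −0.10 to 0.20). In counts per kb Rab8b made up 45.9%, 48.6% and 45.7% of the pair after Ep300 siRNA and 54.1%, 53.5% and 53.6% in the controls, a difference of −7.00 percentage points with no overlap. This share was not tested. Rab10, a relative of Rab8 that delivers Toll-like receptor 4 to the surface, was at −0.11 ± 0.07, with overlapping groups.

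Rab18 was counted with the secretory members although it is known for linking the endoplasmic reticulum to lipid droplets. It had 76.2, 71.3 and 69.9 CPM after Ep300 siRNA and 90.2, 83.8 and 82.8 CPM in the controls. The groups lay apart. Rab18, on chromosome 18 from 6733905 to 6794429 (plus strand), fell by 0.24 on the log2 scale, a ratio of 0.846 (± 0.06, SE, 95% interval −0.38 to −0.11, edgeR adjusted p = 0.0396). It is the least secure of the 5 calls. It was lost without Ep300 siRNA replicate 2 (edgeR adjusted p = 0.13) or 3 (0.143) and without control replicate 1 (0.0864), 2 (0.104) or 3 (0.0737).

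Rab2a was the member that rose. It works between the endoplasmic reticulum and the Golgi and also in the fusion of autophagosomes and endosomes with lysosomes. Its libraries held 89.1, 75.4 and 59.6 CPM after Ep300 siRNA and 49.4, 36.2 and 54.2 CPM in the controls. Ep300 siRNA replicate 3 was only a little above control replicate 3. Rab2a (chromosome 4, 8535644 to 8607778, plus strand) rose 1.6-fold (log2 fold change 0.68 ± 0.15, SE, 95% interval 0.35 to 1.01, edgeR adjusted p = 0.0218). The call was lost without Ep300 siRNA replicate 2 (edgeR adjusted p = 0.0713) or control replicate 2 (0.0708). The transcript has a processed pseudogene, Gm5865, that matches 637 of its 2133 bases at 96.4% identity and held at most 8 counts in a library. Rab2b, its paralog at the Golgi, had 21.8 to 23.5 CPM against 16.9 to 20.4 CPM, with the groups apart and a value of 0.27 ± 0.08 (edgeR adjusted p = 0.0764). Rab2b shares 59.3% of its exon bases with Gm43766 on the other strand, which was at 0.27 ± 0.10.

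No other member of the ER and Golgi group passed the threshold, and Rab1b, Rab19, Rab29 and Rab43 had groups that did not overlap. Rab1a and Rab1b, which govern transport from the endoplasmic reticulum to the Golgi, were at −0.01 ± 0.06 and 0.08 ± 0.06 (SE), and Rab6a, which serves transport back through the Golgi, at −0.04 ± 0.06. Rab29, which recruits the kinase LRRK2 to the trans-Golgi network, was at 0.19 ± 0.09. Rab43 was at 0.15 ± 0.07, Rab34 at −0.005 ± 0.08, Rab19 at −0.14 ± 0.10 and Rab33b at −0.15 ± 0.12. Rab43 shares 75.4% of its exon bases with the read-through gene Gm45140, so reads may be split between them.

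Rab12, which was counted with the exocytic members although it is known for sending receptors from recycling endosomes to lysosomes, had 79.0, 73.8 and 74.6 CPM against 68.9, 65.3 and 61.8 CPM. The groups lay apart, and the value of 0.21 ± 0.06 (SE) missed the threshold (edgeR adjusted p = 0.0666). DESeq2 called Rab12 (adjusted p = 0.0405). Rab27a, needed for secretion from lysosome-related organelles, was at −0.05 ± 0.07, and Rab3d, a granule Rab, at 0.07 ± 0.08.

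Some members of each role are also known from phagosomes. Of 17 Rab genes listed as phagosomal, 16 were tested. In the main edgeR test, DESeq2 and limma-voom 1 fell (Rab7b), none rose and 15 did not pass. With no filter on low counts, edgeR also called Rab20 lower and Rab5a higher. An unadjusted p under 0.05 was found for 5 of the 16 and for 3493 of all 15741 genes. The main edgeR test called 6.25% of the 16, near the 6.78% of all genes. Their median log2 fold change was 0.02, and 8 of the 16 had positive values. Of the 3 tested members with other roles (Rab23, Rab28 and Rab40c) edgeR, DESeq2 and limma-voom called none, and none reached an unadjusted p under 0.05. Rab40c, an adaptor of a ubiquitin ligase, had the smallest p of them at 0.17 ± 0.10 (SE).

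Spread between libraries of one group differed widely between members. For the 36 members with a mean of at least 10 CPM, the median within-group SD was 0.08 on the log2 CPM scale. Rab24, a Rab of autophagic compartments, stood at 0.52, Rab2a at 0.30 and Rab5a at 0.22. Rab24, which is named here because of its spread, after its values had been seen, had 52.0, 41.7 and 22.2 CPM after Ep300 siRNA and 24.1, 18.0 and 30.4 CPM in the controls. Rab5a had 53.9, 52.8 and 41.5 CPM against 36.5, 36.1 and 48.1 CPM. In all 3 genes replicate 1 was the highest and replicate 3 the lowest of the Ep300 siRNA libraries, and replicate 3 the highest and replicate 2 the lowest of the controls.

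The log2 fold change of Rab24 was 0.67 ± 0.25 (SE, edgeR adjusted p = 0.139), nearly as large as that of Rab2a but not past the threshold. It was 0.96 without Ep300 siRNA replicate 3 and then passed (edgeR adjusted p = 0.0136). Rab24 shares 62.4% of its exon bases with Prelid1 on the other strand. Prelid1 had 114.7 to 133.3 CPM after Ep300 siRNA and 120.9 to 128.3 CPM in the controls, without the spread of Rab24. Gm42418, a noncoding transcript on chromosome 17, was at 5823, 2174 and 1363 CPM in the Ep300 siRNA libraries, in the same order as Rab24, Rab2a and Rab5a, and at 1529, 1327 and 1451 CPM in the controls, in another order. Its part in these values was not tested. Over the fits that left out a library, the log2 fold change of Rab2a ran from 0.54 to 0.82. Without Ep300 siRNA replicate 1, the library with most Gm42418, it was 0.54 and the call was kept (edgeR adjusted p = 0.0457). With mitochondrial and Gm42418 rows removed, Rab2a was called higher as well.

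**Figure D4:**
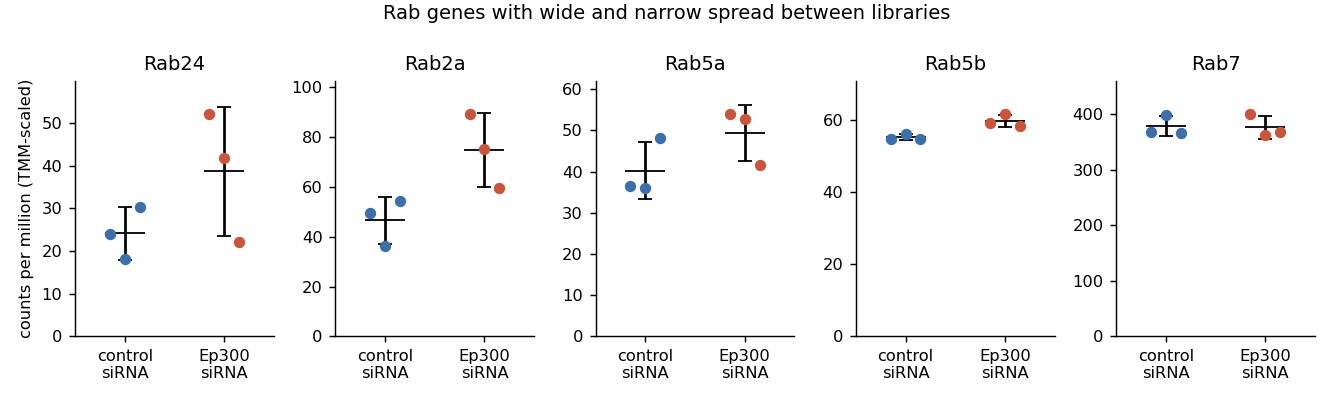
CPM (y axis, TMM-scaled counts) of Rab24, Rab2a and Rab5a, whose libraries spread widely within a group, beside Rab5b and Rab7, with 1 point per library in the order of replicates, a bar at the mean and error bars of 1 SD (n = 3). Points of Rab24 run from 22.2 to 52.0 CPM after Ep300 siRNA, while the controls of Rab5b lie between 54.7 and 56.2 CPM.

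For most members the test bounds the change rather than leaving it unknown. Of the 40 tested members without a call, 34 had a 95% interval of the fold change within 1.5-fold in either direction, and 23 within 1.25-fold. Such bounds do not mean no change, as 11 of the 40 had an unadjusted p under 0.05. Over the family that was 16 of the 45 members tested, and over all genes 3493 of 15741. In simulated libraries of 15741 genes, in which 50 were changed by each fold, the same test found 48% of those changed 1.25-fold and 92% of those changed 1.5-fold. The simulated spread depended on level alone, and only genes with ample counts were changed. These rates therefore do not cover members with a wider spread, such as Rab24, Rab2a and Rab5a, or with few counts, such as Rab39, Rab3c and Rab6b.

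Genes listed as Rab regulators, Rab effectors or phagosome proteins changed in small numbers in both directions. Over 5 lists of exchange factors, GTPase-activating proteins, prenylation and recycling factors, effectors and phagosome proteins, 133 genes were tested, of which 7 rose and 5 fell (9.02%, against 6.78% of all genes). Of 36 exchange factors tested, 2 rose and 1 fell (8.33%), with a median log2 fold change of −0.06. Dennd5a, an exchange factor and Rab6 partner, rose 1.24-fold, from 84.5 ± 4.36 to 105.2 ± 3.84 CPM (SD, n = 3; edgeR adjusted p = 0.0115). Ankrd27, which activates Rab21 and binds Rab32, rose from 29.0 ± 1.30 to 34.6 ± 1.14 CPM. Smcr8, the partner of C9orf72 in an autophagy complex, fell from 142.1 ± 7.37 to 118.7 ± 4.84 CPM.

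Of 35 GTPase-activating proteins tested, 1 rose and 2 fell (8.57%, against 6.78% of all genes, median 0.05). DESeq2 called 3 of them in each direction, and 1407 of all 15741 genes. Tbc1d14, which binds Rab11 and restrains autophagosome formation, was at 46.3, 44.7 and 44.3 CPM after Ep300 siRNA and at 60.2, 62.8 and 59.9 CPM in the controls. It fell by 0.43 on the log2 scale, a ratio of 0.740 (± 0.06, SE, edgeR adjusted p = 0.00152). Sgsm1, a RUN and TBC domain protein, fell to 0.739 and Tbc1d20, which acts on Rab1 and Rab18, rose 1.23-fold.

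Of 12 prenylation and recycling genes, 3 had an unadjusted p under 0.05, as did 3493 of all 15741 genes. In edgeR 1 rose and none fell (8.33%, against 6.78% of all genes, median 0.14). That gene was Fnta, the alpha subunit shared by farnesyl transferase and the first geranylgeranyl transferase, enzymes other than the one that prenylates most Rab proteins. Fnta was at 37.4 ± 1.87 against 28.7 ± 2.10 CPM (SD, n = 3), a rise of 1.31-fold (edgeR adjusted p = 0.01). DESeq2 called 2 genes of this list higher and none lower. Gdi2, the GDP dissociation inhibitor that recycles Rab proteins, was at 0.19 ± 0.06 (SE, edgeR adjusted p = 0.0844).

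Of 32 effectors tested, 1 rose and 2 fell (9.38%, against 6.78% of all genes, median 0.002). Rilpl2, which binds Rab8 and Rab10 phosphorylated by LRRK2, was at 59.7, 58.0 and 60.0 CPM after Ep300 siRNA and at 89.6, 90.1 and 82.2 CPM in the controls. The groups lay well apart. Rilpl2 fell by 0.56 on the log2 scale, a ratio of 0.679 (± 0.06, SE, edgeR adjusted p = 5.74e-04). Its relative Rilpl1 fell to 0.834. Golga2, the Golgi matrix protein GM130 that binds Rab1, rose 1.26-fold, from 221.8 ± 5.19 to 279.4 ± 6.49 CPM (SD, n = 3; edgeR adjusted p = 0.00588).

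Of 18 phagosome SNAREs, oxidase subunits and membrane proteins tested, 2 rose and none fell (11.1%, against 6.78% of all genes, median 0.09). DESeq2 called 5 of them higher and 1 lower, and 1407 of all 15741 genes. An unadjusted p under 0.05 was found for 8 of the 18 and for 3493 of all genes. Stx12, a SNARE of recycling endosomes, was at 146.3, 145.2 and 147.4 CPM after Ep300 siRNA and at 119.6, 109.7 and 109.4 CPM in the controls. It rose 1.30-fold (log2 fold change 0.37 ± 0.06, SE, edgeR adjusted p = 0.00401). Lamp2, a lysosomal membrane protein, rose 1.19-fold, a call lost whichever of the 6 libraries was dropped (edgeR adjusted p from 0.0506 to 0.144). Of the 12 partner genes called, Ankrd27 and Smcr8 lost theirs without any library but control replicate 1 (edgeR adjusted p up to 0.13 and 0.145), and Rilpl1 without any but control replicate 3 (up to 0.149). Tbc1d20 lost its call without Ep300 siRNA replicate 1 or 2 or control replicate 2 or 3 (edgeR adjusted p up to 0.105), and Dennd5a without Ep300 siRNA replicate 2 (0.0523).

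**Figure D5:**
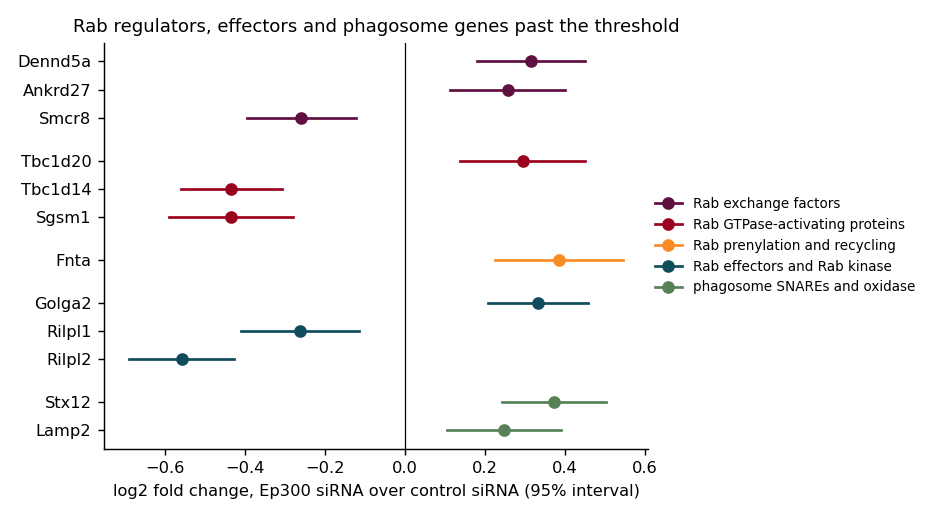
Log2 fold change (Ep300 siRNA over control siRNA, x axis) with 95% intervals of the 12 genes past the threshold among Rab regulators, effectors and phagosome genes, coloured by list. Rilpl2, Tbc1d14 and Sgsm1 have the lowest values and Fnta and Stx12 the highest.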

How the data were processed

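The authors deposited unnormalized counts, 1 row per gene symbol and 1 column per library, matched to samples by name. The build GRCm38 and the tools STAR 2.5.3a, fastp 0.23.4, edgeR 3.12.1 and featureCounts are named in the submitters' processing notes. How strand, multimapping and read pairs were handled is not known here. Among counts of 1 to 4, 79.8% to 80.9% were even per library, so both mates of a pair may have been counted, and PCR copies are not independent molecules.

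Genes were tested with edgeR 4.0.16 (R 4.3.3): filterByExpr, TMM scaling, the quasi-likelihood F-test with no covariate, and Benjamini-Hochberg adjustment over 15741 genes, two-sided, with a threshold of 0.05. Alternatives were RLE, upper-quartile or no scaling, other filters, a replicate block, DESeq2 1.42.0, limma-voom (limma 3.58.1), counts halved, mitochondrial and Gm42418 rows removed, each library left out, and other thresholds. SE was taken from the fold change and F statistic. Gene models and exon lengths came from GENCODE M21 and transcript matches from blastn 2.17.0 (at least 95% identity over 100 bases). Members, role groups and lists were chosen with earlier results of these data known. Genes named were Ep300, members past the threshold, with groups apart or marked phagosomal, the smallest p in each role group and list, and the ends of the level order. Rab24, Rab8a and other members given as values fall outside that rule. The test was tried on simulated data.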

Additional observations from a re-analysis of the deposited data

How the results depend on the processing

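A total of 16 other settings was run for 44 named genes. Of 702 values, 643 kept their direction and side of the threshold, 37 lost a call (34 with a library left out and 3 with library size alone), 8 gained one and 14 changed sign. Of the 18 genes called, 9 passed in every setting, among them Ep300, Rab15 and Rab7b. The values that changed sign were those of 4 genes: Rab34 was at 0.0016 with RLE scaling and by DESeq2, and over fits with a library left out at −0.044 to 0.025, Rab7 at −0.043 to 0.043, Rab14 at −0.036 to 0.032 and Rab3c, at 0.25 ± 0.36 (SE) on all libraries, at −0.061 to 0.456.

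The count of Rab genes that rose, 1, was 3 with no filter on low counts, 2 by DESeq2, 0 at an adjusted p under 0.01 and 5 under 0.1, and the count that fell, 4, was 2 under 0.01. With a library left out they were 0 to 2 and 2 to 4. Over all genes, no filter gave 730 rises and 991 falls, DESeq2 667 rises, an adjusted p under 0.01 gave 130 and 239, and one under 0.1 gave 798 and 1020. With a library left out there were 202 to 447 rises and 280 to 607 falls, with fewer samples per fit. The causes of the other shifts were not tested. The Rab median of 0.038 was 0.004 with library size alone and 0.001 where genes needed 1 CPM in 3 libraries.

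With the replicate number as a block, 2 Rab genes rose, Rab12 being added, and 1357 genes were called in place of 1068. Deviations of same-numbered libraries correlated at 0.087, 0.020 and −0.047, and those of differently numbered ones at −0.101 to 0.088. The labels do not say whether libraries of one number were prepared together. With 3 libraries per group these correlations cannot settle it, so pairing is unknown. Depth limits members such as Rab39, Rab3c and Rab6b, with at most 34 counts in a library.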
